A study of Rattus norvegicus with 4 samples.

Results

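The intercalated disc is the end-to-end contact between heart muscle cells. The 10 genes described here encode parts of it: the desmosome genes Dsp, Jup, Pkp2, Dsg2 and Dsc2, the adherens junction genes Cdh2 and Ctnna3, the Xin repeat genes Xirp1 and Xirp2, and the gap junction gene Gja1. They were chosen by name for their place in this structure, with earlier results of these data known, out of 15544 gene symbols in the deposited expression values. Ctnna3 is listed as 2 gene models, so the 10 genes make up 11 of the 15731 gene models.

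RNA came from ventricular cardiomyocytes of wild type Wistar rats at postnatal day 1, grown as primary cultures and transfected with a synthetic miRNA mimic. The mimics were hsa-miR-25-3p, hsa-miR-93-5p and hsa-miR-106b-5p, which come from a single miRNA cluster, and cel-miR-67, a worm miRNA used as control. Each of the 4 mimics was measured in 1 library, so no difference between mimics has a replicate check, no test between conditions is possible, and a difference between mimics and a difference between cultures cannot be told apart. The label texts disagree on the mimic dose, given as 25 nM and as 25 mM, and on whether the hearts were of day 0 or day 1. RNA was taken 72 h after transfection. Non-muscle cells had been reduced by letting them settle on plastic before plating, so the cultures were enriched for cardiomyocytes but not pure, and the number of animals behind a culture is not stated in the sources used here.

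In a beating heart the intercalated disc has to hold cells together, pass on force and pass on current. Desmosomes tie the intermediate filaments of neighbouring cells together through desmosomal cadherins and a plaque of plakoglobin, plakophilin and desmoplakin, and adherens junctions do the same for actin filaments through N-cadherin and catenins. Gap junctions let ions pass from cell to cell. Several of these genes are known from inherited arrhythmogenic cardiomyopathy, in which this contact fails.

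The miRNAs whose mimics were used fall into a pair of seed groups, which matters for the comparisons below because a miRNA finds its targets mainly by its seed. The sequences are the rat forms from RefSeq (GRCr8), written 5′ to 3′ with the seed, bases 2 to 8, in capitals; the worm miRNA was not looked up here.
rno-miR-106b-5p: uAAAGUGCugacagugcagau
rno-miR-93-5p: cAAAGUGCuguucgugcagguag
rno-miR-25-3p: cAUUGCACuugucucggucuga
They lie on the minus strand at chr12:22157103-22157123, chr12:22156894-22156916 and chr12:22156652-22156673 in the same order. miR-106b and miR-93 carry the same seed, AAAGUGC, and are equal at 16 of the 21 positions compared from the 5′ end without gaps. miR-25 carries another seed, AUUGCAC, which in the rat table it shares with miR-32, miR-363, miR-92a and miR-92b.

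Levels are given as RPKM, the reads of a gene divided by its length and by the size of the library. The libraries held between 15175185 reads on listed genes with cel-miR-67 and 18797234 with miR-106b, and the whole reads behind each RPKM value were recovered from the values. Intervals are 95% exact intervals of these reads, Poisson for a level and Clopper-Pearson for a fold change. They hold the counting error of the reads alone, and differences from culture to culture are not in them. The number of reads per sample that the study's methods give is lower than the recovered reads, whose absolute scale rests on gene lengths being whole numbers of bases, so the intervals would be wider if the methods' number held. A gene was counted as having risen or fallen when its RPKM was above 1.0 in both libraries and its ratio was past 1.3-fold. All 11 gene models were above 1.0 RPKM in every library, so each of them entered each comparison.

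Each cardiomyocyte marker of a fixed list that was found, 12 of 13, was detected in every library, at between 15.9 and 7223 RPKM, so the labelled cell type is borne out by troponin, myosin and actin genes. Of 10 fibroblast markers all were detected above 1.0 RPKM as well, with a summed level of 852 RPKM in the control library and 350 with miR-25. The summed level of the cardiomyocyte markers was 24215 RPKM with cel-miR-67, 13898 with miR-25, 21369 with miR-106b and 16419 with miR-93. In bulk RNA, fewer muscle cells and less RNA per muscle cell cannot be told apart.

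In the control library the 10 genes spanned a range from Cdh2 at 101 RPKM down to Dsc2 at 4.20 RPKM. Cdh2 encodes N-cadherin, the adhesion molecule of the adherens junction. Below it came Xirp1 at 77.0, Gja1 at 71.7, Pkp2 at 63.8, Xirp2 at 63.0 and Dsp at 51.9 RPKM. A lower tier held Jup at 20.2, the 2 Ctnna3 models at 17.5 and 10.1, Dsg2 at 12.0 and Dsc2 at 4.20 RPKM. Only Pkp2 and Xirp2, next to each other in this order, had overlapping counting intervals, 61.7 to 66.0 and 62.1 to 64.0 RPKM. The order was not the same in the other libraries. With miR-93 Gja1 stood first and Xirp2 had dropped from the fifth to the tenth place of 11. The plot of levels by mimic shows how unequal the genes were in this respect. Cdh2 and Jup stayed within 1.14-fold between their lowest and highest library, whereas Dsc2 spanned 2.71-fold and Xirp2 22.3-fold.

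**Figure D1:**
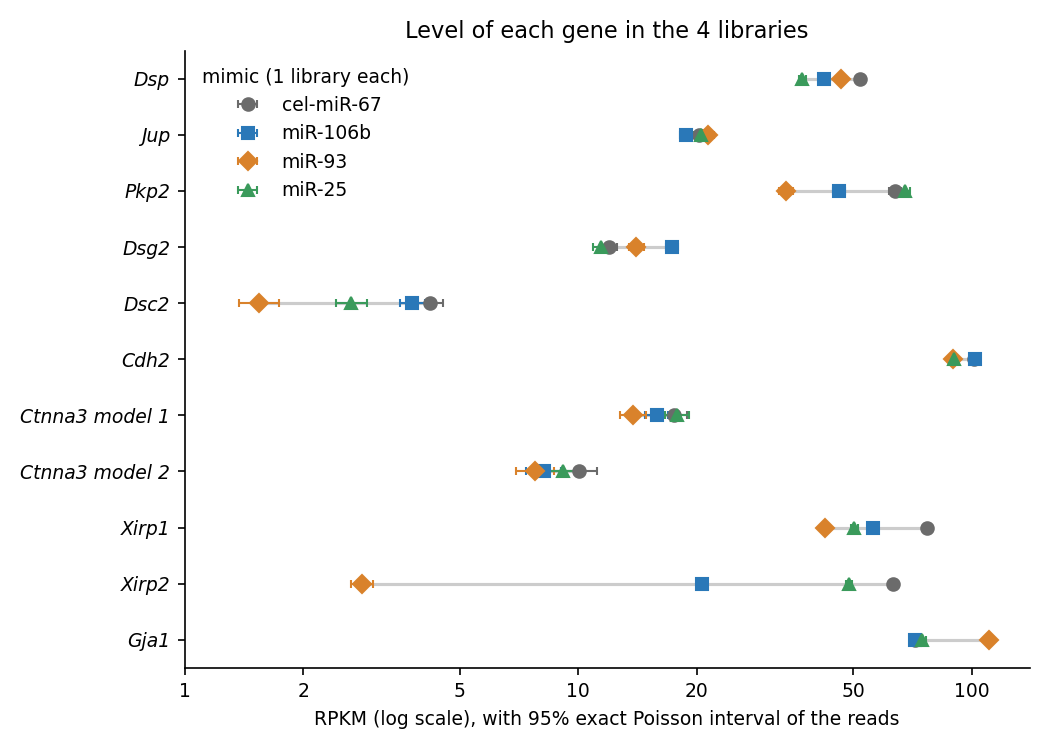
RPKM (log scale) of the 11 gene models in the 4 libraries, 1 point per library with its 95% exact Poisson interval and a grey line from the lowest to the highest library. Xirp2 runs from 2.82 RPKM with miR-93 to 63.0 with cel-miR-67, while the points of Jup and Cdh2 nearly coincide.

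With miR-106b, 3 of the 11 gene models fell and 1 rose. Across all genes tested, 12.7% fell and 11.9% rose past the same cutoff. The median log2 fold change of the 11 models was -0.15, against -0.00 for all genes. With miR-93, 4 fell and 1 rose, where 15.6% of all genes fell and 15.1% rose, and the medians were -0.35 and -0.00. With miR-25, 3 fell and none rose, where 22.6% of all genes fell and 19.3% rose, and the medians were -0.14 and -0.01. These counts rest on 11 models and were not tested against the other genes. The genes that fell were Xirp2, Pkp2 and Xirp1 with miR-106b, the same genes and Dsc2 with miR-93, and Dsc2, Xirp1 and Dsp with miR-25, the last 3 only as long as levels are set against library size.

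The counts for miR-25 depend on what the levels are set against. All 12 cardiomyocyte markers found fell with miR-25, with a median log2 fold change of -0.91, and the medians for miR-106b and miR-93 were -0.13 and -0.28. Set against that median instead of the library size, Dsp, Xirp1 and Dsc2 turned from below to above 0 with miR-25, at 0.43, 0.30 and 0.25, and 9 of the 11 models counted as risen. The models not counted as risen were Xirp1 and Dsc2. Below, values with miR-25 are against library size unless the markers are named. The troponin I gene Tnni3, named after its values were seen, was the lowest of these markers with miR-25, at 15.9 RPKM against 351 in the control library. The part of the share or RNA content of muscle cells in the values with miR-25 was not tested. With miR-93 the same step left 4 models fallen and Xirp2 at -4.20. With miR-106b it left Xirp2 as the only fall, since Pkp2 and Xirp1 came to lie inside the cutoff at -0.35 and -0.33.

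The Xin repeat genes gave the largest differences among the 10. Their proteins bind and bundle actin filaments at the adherens junctions of the disc, and the pair is found in striated muscle. Xirp2 (ENSRNOG00000034258) was at 63.0 RPKM in the control library (17320 reads), 48.7 with miR-25 (16080 reads), 20.6 with miR-106b (7431 reads) and 2.82 with miR-93 (935 reads). The level thus differed between all 4 libraries by more than counting error, with miR-93 far below the rest. The log2 fold change of Xirp2 against cel-miR-67 was -4.48 with miR-93 (95% interval -4.58 to -4.38), a 22.3-fold fall and the lowest value of the 11280 genes tested in that comparison. With miR-106b it was -1.61 (-1.65 to -1.57), a 3.06-fold fall and the 20th lowest of 11296 genes tested. With miR-25 Xirp2 was at -0.37 (-0.40 to -0.34), or 1.29-fold lower, just inside the 1.3-fold cutoff.

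Xirp1 (ENSRNOG00000037085) was at 77.0 RPKM with cel-miR-67, 56.1 with miR-106b, 50.3 with miR-25 and 42.2 with miR-93. Every mimic library was below the control, and Xirp1 fell past the cutoff with each of them, but against the cardiomyocyte markers only the fall with miR-93 stayed past it, since Xirp1 lay inside the cutoff with miR-106b and above 0 with miR-25. The log2 fold changes were -0.62 with miR-25 (-0.66 to -0.57), -0.46 with miR-106b (-0.50 to -0.42) and -0.87 with miR-93 (-0.91 to -0.82). Set against library size, it was the only one of the 10 genes past the cutoff with all 3 mimics, and the 3 comparisons share 1 control library. The relation between the pair of Xin repeat genes changed as well. Within a library, a ratio of 2 genes does not depend on how the library was scaled. Xirp2 stood at 0.819 of the Xirp1 level in the control library (0.799 to 0.839), at 0.969 with miR-25 (0.943 to 0.995), at 0.367 with miR-106b (0.356 to 0.379) and at 0.0669 with miR-93 (0.0624 to 0.0716). The pair was thus near equal in level with cel-miR-67 and miR-25, and Xirp1 far exceeded Xirp2 with miR-93.

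Over the 4 libraries, the genes whose pattern came closest to that of Xirp2, among 4170 with RPKM above 10 in every library, were Nppa, Enah and Nppb, at distances of 1.36, 1.41 and 1.51 on the log2 scale. The distance is the Euclidean distance of log2 RPKM centred on each gene's mean, and it rests on 4 points. Xirp2 itself, at 2.82 RPKM with miR-93, lay under the level of 10, so genes that went as low were not compared. Nppa and Nppb encode the natriuretic peptides, and Enah encodes an actin regulator of the Ena/VASP family. Enah was at 89.3 RPKM with cel-miR-67, 89.1 with miR-25, 37.7 with miR-106b and 14.3 with miR-93. Like Xirp2, these genes were lowest with miR-93, but Nppa was highest with miR-25, at 4425 RPKM against 1860 in the control library. With miR-106b, Nppa and Nppb lay inside the cutoff at -0.21 and -0.14 on the log2 scale, where Xirp2 was at -1.61.

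The desmosomal cadherins Dsc2 and Dsg2, the adhesion molecules of the desmosome, moved apart. In RefSeq's rat annotation they lie in the same run of genes, with the 4 protein-coding genes Dsc1, Dsg1, Dsg4 and Dsg3 between them. Dsc2 (desmocollin-2, ENSRNOG00000039969) was at 4.20 RPKM with cel-miR-67, 3.79 with miR-106b, 2.65 with miR-25 and 1.55 with miR-93, from 631, 746, 478 and 280 reads. The control and miR-106b libraries were close, and the other pair of libraries lay lower. Dsc2 fell by 1.44 on the log2 scale with miR-93 (interval -1.65 to -1.24), a 2.71-fold fall at the 118th lowest place of 11280 genes, and by 0.67 with miR-25 (-0.84 to -0.49), where the sign turned against the cardiomyocyte markers. At 1.55 RPKM the miR-93 level lay under 2.0 RPKM, and with the cutoff set there Dsc2 would not be compared for miR-93 and 3 falls would remain in place of 4. With miR-106b its value was -0.15 (-0.31 to 0.00), so no difference was detectable for Dsc2 at this depth.

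Dsg2 (desmoglein-2, ENSRNOG00000016526) was at 12.0 RPKM with cel-miR-67, 11.4 with miR-25, 14.0 with miR-93 and 17.3 with miR-106b. It was highest with miR-106b, where it rose by 0.53 on the log2 scale (0.44 to 0.62) and was the only one of the 10 genes to rise. With miR-93 the value was 0.23 (0.14 to 0.33), inside the cutoff, and with miR-25 it was -0.06 (-0.16 to 0.04). As a result, the Dsc2 level was 0.351 of the Dsg2 level in the control library (0.320 to 0.386), 0.219 with miR-106b (0.202 to 0.237), 0.231 with miR-25 (0.209 to 0.256) and 0.110 with miR-93 (0.0970 to 0.125). Dsg2 exceeded Dsc2 in every library, and the gap was widest with miR-93, at 9.07-fold against 2.85-fold in the control library.

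The plaque genes Pkp2, Jup and Dsp did not move as a group. Pkp2 (plakophilin-2, ENSRNOG00000001825), which links the cadherins to desmoplakin, was at 63.8 RPKM with cel-miR-67, 67.7 with miR-25, 33.7 with miR-93 and 46.0 with miR-106b. The control and miR-25 libraries were close, and the libraries of the mimics that share a seed were lower. Pkp2 fell by 0.92 on the log2 scale with miR-93 (-1.001 to -0.85) and by 0.47 with miR-106b (-0.54 to -0.40), the latter inside the cutoff against the cardiomyocyte markers. Its value with miR-25 was 0.08 (0.02 to 0.15).

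Jup (ENSRNOG00000015380), the gene of plakoglobin, a plaque protein that binds the tails of the desmosomal cadherins, was at 20.2 RPKM with cel-miR-67, 20.5 with miR-25, 18.8 with miR-106b and 21.4 with miR-93. Its log2 fold changes lay between -0.11 and 0.08, so Jup was past the cutoff with no mimic against library size. Against the cardiomyocyte markers Jup counted as risen with miR-25. The Pkp2 level was 3.16 times that of Jup with cel-miR-67 (2.99 to 3.33), 3.31 times with miR-25 (3.16 to 3.47), 2.44 times with miR-106b (2.33 to 2.57) and 1.58 times with miR-93 (1.49 to 1.66). Dsp (ENSRNOG00000013928), the gene of desmoplakin, which anchors desmin filaments to the plaque, had another order again. It was at 51.9 RPKM in the control library, 46.5 with miR-93, 42.1 with miR-106b and 37.1 with miR-25. Dsp fell past the cutoff with miR-25, by 0.49 on the log2 scale (-0.52 to -0.45), but lay above 0 there against the cardiomyocyte markers. Its values with miR-106b and miR-93 were -0.30 (-0.34 to -0.26) and -0.16 (-0.19 to -0.12).

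**Figure D2:**
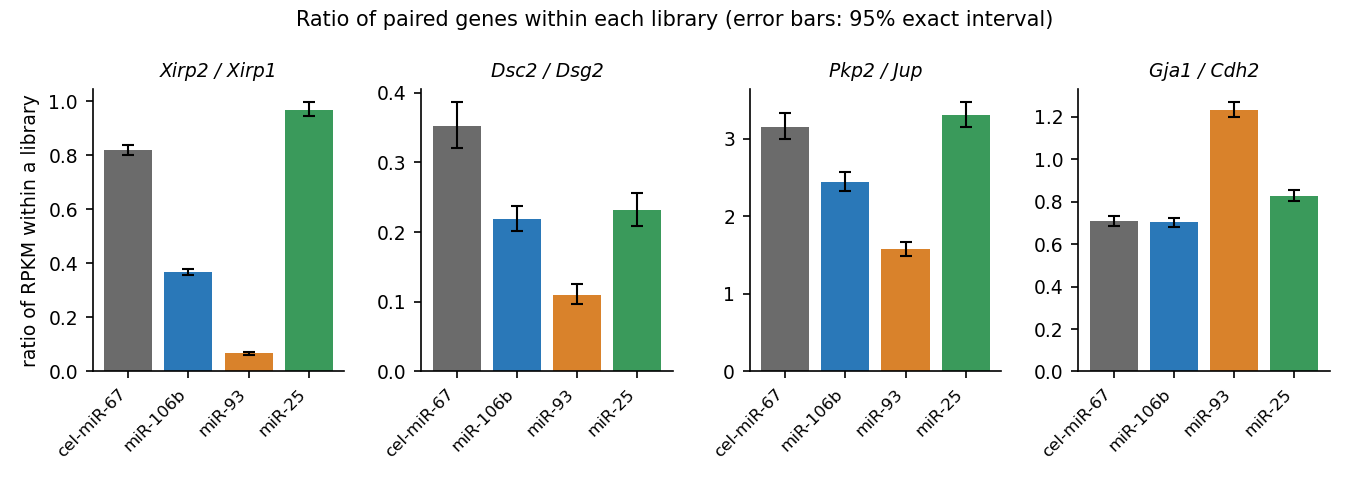
Ratio of RPKM of 2 genes within each library, with 95% exact intervals of the reads as error bars and axes starting at 0. The Xirp2 to Xirp1, Dsc2 to Dsg2 and Pkp2 to Jup ratios are lowest with miR-93, at 0.0669, 0.110 and 1.58, and the Gja1 to Cdh2 ratio is highest with miR-93, at 1.23.

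Of the adherens junction genes, Cdh2 (ENSRNOG00000015602) was at 101 RPKM with cel-miR-67, 90.0 with miR-25, 102 with miR-106b and 89.4 with miR-93. Its log2 fold changes were 0.01 (-0.03 to 0.05), -0.18 (-0.22 to -0.14) and -0.17 (-0.21 to -0.13) in the order miR-106b, miR-93 and miR-25, all inside the cutoff against library size. Against the cardiomyocyte markers Cdh2 counted as risen with miR-25, at 0.75, as did both Ctnna3 models. Ctnna3 encodes αT-catenin, which ties adherens junctions and plakophilin-2 to actin in heart muscle. Its models, ENSRNOG00000000373 and ENSRNOG00000000378, had 704 and 360 reads in the control library. The first was at 17.5 RPKM with cel-miR-67, 17.8 with miR-25, 15.8 with miR-106b and 13.8 with miR-93. The second was at 10.1, 9.17, 8.16 and 7.78 RPKM in the same order. Both were lowest with miR-93, at log2 fold changes of -0.35 (-0.50 to -0.19) and -0.37 (-0.59 to -0.15), close to but inside the cutoff. How reads were divided between the models is not given in the sources used here.

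Gja1 (ENSRNOG00000000805) encodes connexin 43, the main gap junction protein of ventricular muscle, which fibroblasts and smooth muscle cells also make. It was at 71.7 RPKM with cel-miR-67, 71.7 with miR-106b, 74.6 with miR-25 and 110 with miR-93. The first 3 of these libraries were nearly level and the miR-93 library stood above them. Gja1 rose by 0.62 on the log2 scale with miR-93 (0.57 to 0.67), or 1.54-fold, and was the only one of the 10 genes to rise with that mimic. With miR-25 the log2 fold change of Gja1 was 0.06 (0.00 to 0.11), and with miR-106b it was -0.00 (-0.05 to 0.05). Relative to Cdh2, the Gja1 level went from 0.710 in the control library (0.686 to 0.734) to 1.23 with miR-93 (1.20 to 1.27). With miR-93 no smooth muscle marker of the fixed list rose and 2 of 4 fell, and of the fibroblast markers none of 10 rose and 5 fell. Of all genes tested, 15.1% rose and 15.6% fell. Among mesothelial and epithelial markers 3 of 8 tested rose, among macrophage markers 2 of 5 did, and none of either list fell. The part of other cell types in the Gja1 values was not tested.

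**Figure D3:**
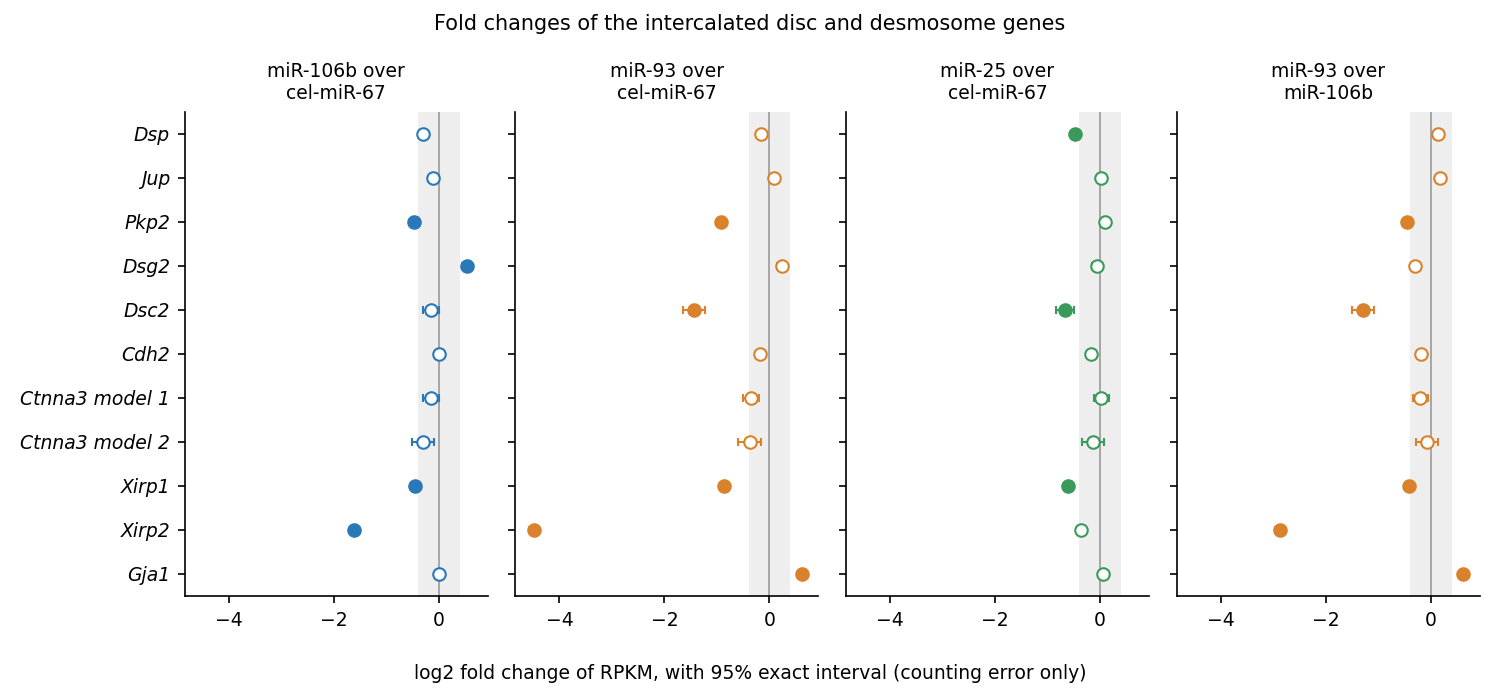
Log2 fold change of RPKM of the 11 gene models in 4 comparisons, with 95% exact intervals. Filled points are past 1.3-fold, open points lie inside the grey band of the cutoff. Xirp2 lies at -4.48 with miR-93 against cel-miR-67 and at -2.87 against miR-106b, and Gja1 is the only filled point above 0 in both panels for miR-93.

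The comparison of miR-93 with miR-106b asks how far mimics with the same seed differ, and it does not use the control library. Of the 11 gene models, 4 were lower and 1 was higher with miR-93 past 1.3-fold, where 8.21% of 11391 genes tested were lower and 7.3% were higher. Xirp2 was 7.30-fold lower with miR-93 than with miR-106b (log2 fold change -2.87, interval -2.97 to -2.77), the third lowest value of all genes tested. Dsc2 was lower by 2.45-fold (-1.29, -1.49 to -1.09), at the 40th lowest place. Pkp2 at -0.45 (-0.53 to -0.37) and Xirp1 at -0.41 (-0.45 to -0.37) were past the cutoff by less, and came to lie inside it, at -0.28 and -0.24, against the cardiomyocyte markers. With a cutoff of 2.0 RPKM Dsc2 would not be compared here either. Gja1 was 1.54-fold higher (0.62, 0.58 to 0.67). Xirp2, Pkp2 and Xirp1 were each lower with miR-106b than with cel-miR-67 and lower again with miR-93, while Dsc2 and Gja1 had differed little between miR-106b and cel-miR-67. Dsp at 0.14, Jup at 0.18, Cdh2 at -0.19 and Dsg2 at -0.30 lay inside the cutoff.

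miR-25 differed past the cutoff from both of these mimics in Xirp2, Pkp2 and Dsc2. Against miR-106b 2 models were higher and 2 lower with miR-25, and against miR-93 3 were higher and 1 lower, where in either comparison 22.1% of all genes tested were higher and 23% lower. Xirp2 was 2.36-fold higher with miR-25 than with miR-106b and 17.2-fold higher than with miR-93, the highest ratio of all genes tested between those libraries. Pkp2 was 1.47-fold and 2.01-fold higher in the same comparisons. Dsc2 was 1.43-fold lower with miR-25 than with miR-106b and 1.71-fold higher than with miR-93. Dsg2 was 1.51-fold lower with miR-25 than with miR-106b, and Gja1 was 1.48-fold lower than with miR-93. The cardiomyocyte markers had medians of -0.63 and -0.53 on the log2 scale in these comparisons. Set against them, Dsg2 at 0.038 and Dsc2 at 0.12 turned to just above 0 against miR-106b. Gja1 at -0.03 lay inside the cutoff against miR-93, while Xirp2 and Pkp2 stayed higher with miR-25 in both comparisons. The same step moved Xirp1, Cdh2, Jup and both Ctnna3 models from inside the cutoff to higher with miR-25 in both comparisons. Against miR-106b it did so for Dsp and Gja1 as well. The counts of higher and lower models with miR-25 thus hold only against library size.

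Other genes of the disc were taken from lists of related genes. In the list of scaffold genes, 13 of 15 were found, none rose with miR-93, and 5 of the 11 tested fell. They were Nrap, a nebulin-related protein that anchors actin at the junction, at -1.59 (-1.66 to -1.53), Csrp3, the muscle LIM protein, at -1.44 (-1.49 to -1.40), Sorbs2 at -0.91, the integrin-linked kinase gene Ilk at -0.74 and the spectrin gene Sptan1 at -0.39. The medians of the list were -0.19, -0.33 and -0.03 in the order miR-106b, miR-93 and miR-25. Of the 12 cardiomyocyte markers tested, 5 fell and 1 rose with miR-93. Nrap was at 55.7 RPKM with cel-miR-67, 40.1 with miR-106b, 32.3 with miR-25 and 18.4 with miR-93, so it was lowest with miR-93 as Xirp1 and Xirp2 were. With miR-106b, Nrap and the intermediate filament gene Synm fell, at -0.47 and -1.34. The cardiomyocyte marker medians were -0.13 with miR-106b and -0.28 with miR-93. Against them, Nrap with miR-106b and Sptan1 with miR-93 lie inside the cutoff. Synm was at 4.07 RPKM in the control library and at 0.721 with miR-93, below the level needed for a fold change. With miR-25, Csrp3, Nrap and Ank2 fell, at -0.91, -0.79 and -0.46, and Sorbs2 and Fermt2 rose, at 0.54 and 0.46. None of these falls went below the cardiomyocyte marker median of -0.91 with miR-25, so they hold only against library size.

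A list of 13 other genes placed with the desmosome includes the filament gene Des and the cardiomyopathy gene Tmem43. Of the 13, 9 were found and 5 were above 1.0 RPKM in each comparison. Of these 5, 1 rose and 1 fell with miR-106b (median -0.24), 1 rose and 2 fell with miR-93 (median -0.36), and 3 rose and 1 fell with miR-25 (median 0.42, the value of Des). Des, the gene of the desmin filaments that desmosomes hold, was at 641 RPKM in the control library, 858 with miR-25, 460 with miR-106b and 358 with miR-93. On the log2 scale it rose by 0.42 with miR-25, fell by 0.84 with miR-93 and fell by 0.48 with miR-106b, the last inside the cutoff against the cardiomyocyte markers. Perp, a desmosomal membrane protein gene, moved the other way, at -0.75, 1.08 and 0.55 in that order. Its fall with miR-25 was smaller than the cardiomyocyte marker median of -0.91, so it holds only against library size. Pkp1, the plakophilin of surface epithelia, was at 1.92 RPKM in the control library and 5.39 with miR-25, where Tmem43, a membrane protein gene of inherited cardiomyopathy, also rose, at 1.16. The other desmocollins, Dsc1 and Dsc3, named after their values were seen, were at most at 0.178 RPKM in any library. Beside these values, 5 of the 8 mesothelial and epithelial markers tested rose with miR-25, 1 fell and 2 lay inside the cutoff. The summed level of that list was 38.2 RPKM with cel-miR-67 and 74.7 with miR-25. Whether other cell types had a part in the values of Pkp1 was not tested.

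All 17 other adherens junction genes were found and 15 were tested. With miR-106b 2 rose and 2 fell, with miR-93 3 rose and 4 fell, and with miR-25 4 rose and 2 fell, at medians of -0.07, -0.14 and 0.21. The counts with miR-106b were 13.3% of the tested genes each way, near the 12.7% down and 11.9% up across all genes. Ctnna1, the αE-catenin gene and relative of Ctnna3, was at 279 RPKM in the control library, 480 with miR-25, 245 with miR-106b and 223 with miR-93. Ctnna1 rose with miR-25, by 0.78 on the log2 scale (0.76 to 0.80), while the Ctnna3 models were at 0.02 and -0.14 there. The β-catenin gene Ctnnb1 rose with miR-93, at 0.39 (0.34 to 0.43), and the p120-catenin gene Ctnnd1 with miR-25, at 0.43 (0.36 to 0.50). Cdh3 (P-cadherin) rose with each mimic, at 1.03, 1.03 and 0.76, and Cdh13 (T-cadherin) fell with each, at -1.12, -0.91 and -1.04, in the order miR-106b, miR-93 and miR-25. The cardiomyocyte marker median with miR-25 was -0.91, so the fall of Cdh13 with miR-25 lies inside the cutoff against these markers. Cdh3 had a control level of 5.77 RPKM, far below that of Cdh2.

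All 14 other gap and tight junction genes were found, of which 7 were tested with miR-106b and 8 with each of the other mimics. No gene of this list fell with miR-106b or miR-93, where 2 and 3 rose, and 5 rose and 1 fell with miR-25. The medians were 0.31, 0.26 and 0.47 in the same order of mimics. Besides Gja1, the connexin genes above 1.0 RPKM in the control library were Gjc1, Gja5, Gja3 and Gja4, at 8.58, 8.12, 3.16 and 1.17 RPKM. Gja5 (connexin 40), known from atrial muscle and the conduction system, rose with miR-93 like Gja1, at 0.76 (0.61 to 0.91), and fell with miR-25, at -0.66 (-0.85 to -0.48). That fall was smaller than the cardiomyocyte marker median of -0.91 with miR-25. Gja3 rose with every mimic, at 0.98, 1.47 and 0.73. Gjc1 (connexin 45), also named with its values known, was past the cutoff with no mimic, at 0.23, 0.18 and 0.27. Cxadr, the gene of the coxsackievirus and adenovirus receptor at the disc, had the highest control level of the list, at 37.8 RPKM, and rose with miR-25, at 0.44. F11r, a junctional adhesion molecule gene, rose with each mimic, from 1.91 RPKM in the control library to between 5.40 and 5.64 RPKM.

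**Figure D4:**
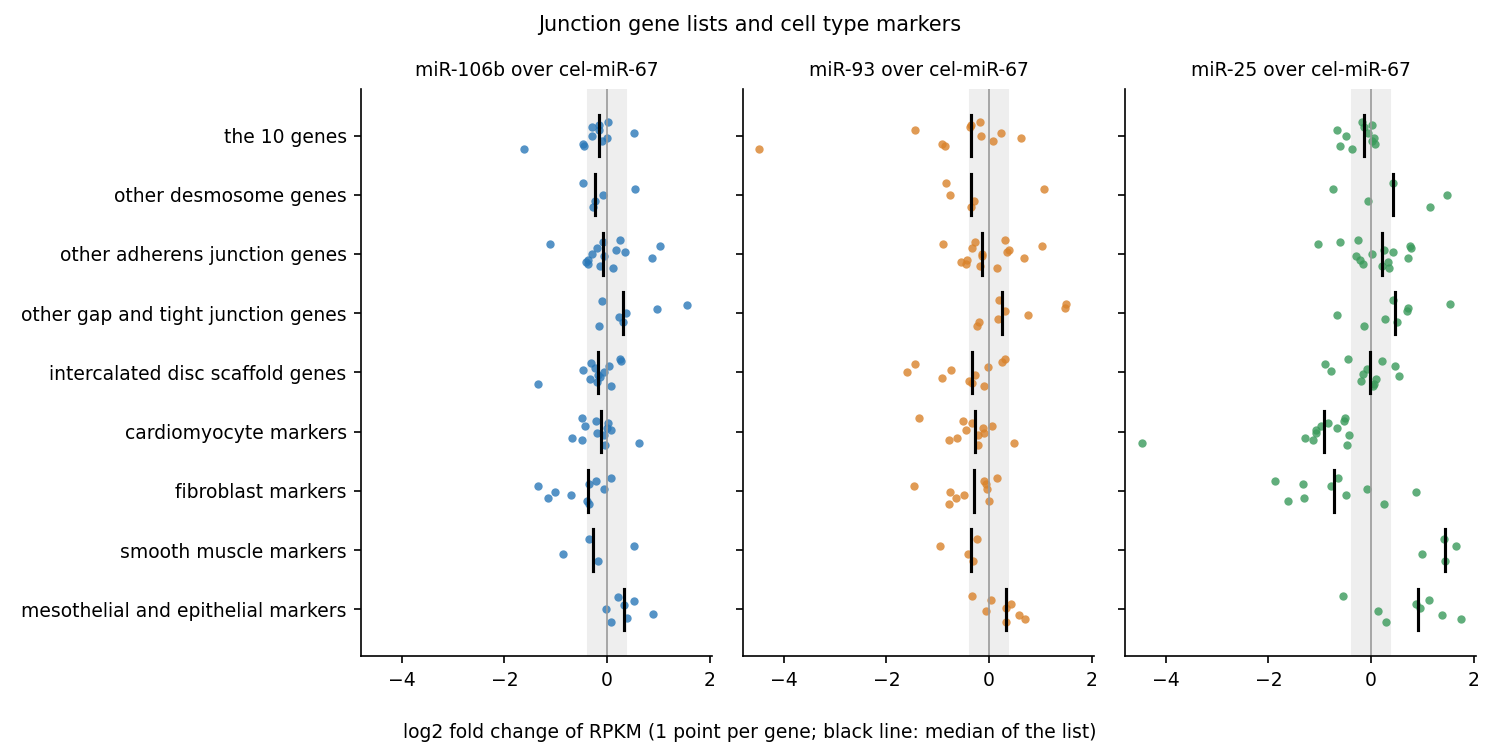
Log2 fold change against cel-miR-67 of each tested gene in the junction lists and in 4 cell type marker lists, 1 point per gene, with the median as a black line and the 1.3-fold cutoff as a grey band. The cardiomyocyte markers centre at -0.91 with miR-25 against -0.14 for the 10 genes, and the smooth muscle markers at 1.44.

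Marker lists of other cell types, measured the same way, moved with the mimics as well. With miR-25 all 4 smooth muscle markers rose, with a summed level of 2051 RPKM against 745 in the control library, and 7 of 10 fibroblast markers fell while 1, Lum, rose by 0.87 on the log2 scale. Of all genes tested, 22.6% fell and 19.3% rose with miR-25. With miR-106b 5 of 10 fibroblast markers fell and none rose, where 12.7% of all genes fell and 11.9% rose. Endothelial markers summed to between 5.75 and 8.56 RPKM over the 4 libraries, and macrophage markers to 13.7 RPKM in the control library and 7.39 with miR-25, and no marker of these lists was at 0 in any library. Their part in the values of the 10 genes was not tested.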

How the data were processed

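The members and gene lists were chosen with earlier results of these data known. Per the labels' processing notes and the study's methods, the authors removed adaptors (Cutadapt), mapped single reads to rat genome Rnor 6.0 (STAR 2.7), rounded the gene counts and deposited RPKM values made with edgeR's rpkm function. The counting program is not given in the sources used here. The table of the series was used, and 0 of its values differed from those given per sample.

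Whole reads were recovered from the RPKM values of all 15731 gene models, since each read adds a fixed step that depends on gene length and library size. A common factor was multiplied back for 654 models, and the procedure was tested on simulated data. Listed genes held between 60.4% and 66.9% of the recovered library sizes, which are larger than the yield given in the methods. Fold changes are ratios of RPKM without a pseudocount, and genes were called past 1.3-fold with RPKM above 1.0 in both libraries, the cutoffs of the study's results text. Its methods give 2.0 RPKM.

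The text names all 10 members, genes of the related lists past the cutoff or of highest control level (Tnni3, Lum, Dsc1, Dsc3 and Gjc1 fall outside this rule), and the 3 genes nearest in pattern to the member with the largest fold change. Older symbols were matched through the RefSeq table (GRCr8), whose gene coordinates are not printed because the build differs. miRNA sites in transcripts were not analysed here. Alternatives were other RPKM and fold cutoffs, pseudocounts, centring and scaling. Software was matplotlib 3.10.9, pandas 2.3.3, scipy 1.17.1 and numpy 2.4.6 under Python 3.11.15.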

Additional observations from a re-analysis of the deposited data

How the results depend on the processing

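The 8 counts of members that rose or fell stayed within 1.5 times of the reported count in 71 of 88 recalculations. Pseudocounts of 0.1 and 1 RPKM, no RPKM cutoff, centring on the median gene, TMM scaling and a requirement that the interval exclude 0 left all 8 at the same number. Dropping the RPKM cutoff could not change a count, since every model was above 1.0 RPKM in every library. Centring on the median gene and TMM scaling shifted values by between -0.01 and 0.00 on the log2 scale. Such shifts could move only values close to the cutoff. An RPKM cutoff of 2.0 removed Dsc2 and left 3 falls in place of 4 with miR-93, against both cel-miR-67 and miR-106b. An RPKM cutoff of 10 also removed Xirp2, at 2.82 RPKM with miR-93. It left 2 falls with miR-93, those of Pkp2 and Xirp1, against both cel-miR-67 and miR-106b. A fold cutoff of 1.5 left 0 rises and 1 fall with miR-106b and 2 falls of miR-93 against miR-106b. A cutoff of 2 left 0 rises and 1 fall with miR-106b, 0 and 2 with miR-93, 0 falls with miR-25, and 0 and 2 for miR-93 against miR-106b. Centring on the cardiomyocyte markers left 1 fall with miR-106b, gave 2 rises with miR-93, 9 rises and 0 falls with miR-25, and left 2 falls of miR-93 against miR-106b. It also turned Dsp to 0.43, Xirp1 to 0.30 and Dsc2 to 0.25 with miR-25, and no other fold change against cel-miR-67 past the cutoff changed sign. Between mimics, an alternative added after seeing the data, it turned Dsg2 to 0.038 and Dsc2 to 0.12 for miR-25 against miR-106b. For miR-25 against either other mimic, this centring also moved Xirp1, Cdh2, Jup and both Ctnna3 models past the cutoff as higher. The median gene itself lay between -0.01 and 0.00 on the log2 scale. Replicates, and so the spread between cultures, were not measured.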
